A study of Caenorhabditis elegans with 14 samples.

Results

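Worms that carry the polyglutamine stretch polyQ35-YFP were compared with wild-type worms, both fed bacteria with the empty vector (EV), in 7 of the 14 samples of the series. PolyQ35-YFP EV (strain AM140, n = 4) expressed 35 glutamine repeats tagged with the yellow fluorescent protein in body wall muscle, and wild-type EV (strain N2, n = 3) carried no such transgene. Both groups were hermaphrodites kept at 20 °C, grown from 6000 synchronized eggs per time point on HT115 bacteria, washed daily to remove progeny and harvested on day 6 of adulthood. RNA of whole worms was sequenced with CEL-Seq2, which reads the 3′ ends of polyadenylated transcripts, so levels were compared between strains and not between genes. The transgene is driven by the promoter of *unc-54*, the gene of the main body wall muscle myosin heavy chain, and it sits in an integrated array, so AM140 is 1 line with its own history. The study deposited a table per strain, hence a difference of strain and any batch between the tables cannot be told apart. PolyQ35-YFP samples had 5905938, 11563506, 6420594 and 9641279 reads on the listed genes, against 5694086, 10513485 and 5880387 reads in wild-type samples. On the first principal component (29.1% of the variance) polyQ35-YFP replicate 4 lay at 62.6, while the other 6 samples lay between -26.99 and 13.8. The strains parted on the second (23.9% of the variance), where polyQ35-YFP replicates 1 to 3 lay between 16.12 and 34.4, replicate 4 at -6.25, and wild-type samples between -36.6 and -13.8.

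A protein whose glutamine run is too long tends to misfold and clump, and one such protein is behind Huntington's disease. Worms with polyglutamine in body wall muscle accumulate fluorescent foci and lose motility with age, and they are used to study proteostasis. Cells answer misfolded proteins through several routes. The heat shock response raises cytosolic chaperones, the unfolded protein responses (UPR) serve the endoplasmic reticulum and the mitochondria, and ubiquitin ligases mark proteins for the proteasome.

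Few genes were called different between the strains. Of the 11751 genes listed in both tables, 49 were higher in polyQ35-YFP worms (0.417%) and 49 were lower (0.417%), or 98 in both directions (0.834%), by limma on log2(normalized value + 1) with a Benjamini-Hochberg adjusted p below 0.05 over all genes. Genes past this threshold are those said to be called, and normalized values are reads divided by a size factor estimated over the 7 samples together. The groups of all 98 called genes did not overlap, whereas 1153 of all genes (9.81%) had groups apart, higher in 4.65% and lower in 5.16%. At an unadjusted p below 0.05, limma put 1038 genes (8.83%) past the threshold. The median log2 fold change over all genes, polyQ35-YFP over wild type, was 0.01. Without polyQ35-YFP replicate 4, 159 genes were called higher and 87 lower, and these included all 49 and all 49. The p-values measure the spread between the samples of these repeats.

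**Figure D1:**
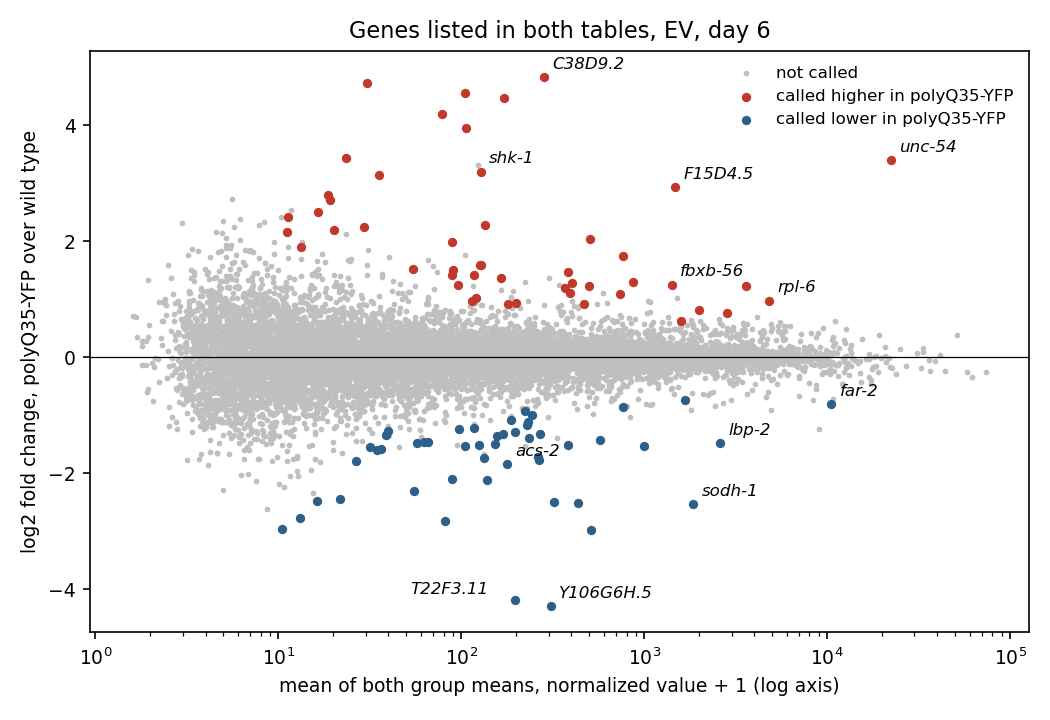
Each point is a gene listed in both tables: the x axis is the mean of the 2 group means (normalized value + 1, log axis) and the y axis is the log2 fold change of polyQ35-YFP over wild type under EV. Red and blue points are the 49 genes called higher and the 49 called lower in polyQ35-YFP worms, and *unc-54* stands alone at the right with a log2 fold change of 3.39.

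The best separated gene was *unc-54* itself (WBGene00006789, chromosome I, 14855899 to 14863540 of WBcel235). Its normalized values were 47477, 38101, 34851 and 42513 in polyQ35-YFP worms, against 3746, 3908 and 3915 in wild-type worms. Every polyQ35-YFP sample was thus far above every wild-type sample, and the means differed 10.6-fold. The log2 fold change was 3.39 ± 0.14 (SE; limma adjusted p = 7.2e-08), and it ranged from 3.31 to 3.57 over the alternatives tried. *unc-54* took 0.657%, 0.508%, 0.477% and 0.493% of the reads in polyQ35-YFP samples and 0.0487%, 0.0522% and 0.0524% in wild-type samples. The 3′ end of the transgene is not given in the sources used here, so whether any of these reads came from the transgene was not tested. In samples of whole worms, fewer cells of a type and less RNA per cell cannot be told apart.

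No other gene of the sarcomere was called. Of 50 tested genes of the body wall muscle sarcomere, 1 was called higher, against 0.417% of all genes, and 0 were called lower. Such a share can leave lists this short without a call. The median log2 fold change was -0.04. *unc-54* was the called gene, 1 of 10 in the thick filament, while 0 of 18 thin filament genes and 0 of 22 genes of dense bodies and attachments were called. *myo-3*, the other body wall muscle myosin heavy chain, had 133, 103.05, 118 and 140 in polyQ35-YFP worms, against 123, 143 and 140 in wild-type worms. These values overlapped, and the interval of the log2 difference ran from -0.54 to 0.27 (limma adjusted p = 0.92).

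Paramyosin, the core of the thick filament, is the product of *unc-15*, which had 911, 798, 757 and 857 in polyQ35-YFP worms, against 1019, 1037 and 1087 in wild-type worms. The groups lay apart, but the difference of -0.34 on the log2 scale was not called (limma adjusted p = 0.45). The actin genes *act-1*, *act-2*, *act-3* and *act-4* had log2 fold changes of 0.02, -0.28, -0.17 and 0.29 and were not called, and reads of such near-identical genes may be split uncertainly. *pat-2*, an alpha integrin of the muscle attachments, had 132, 90.1, 97.8 and 110 in polyQ35-YFP worms, against 51.4, 62.0 and 78.8 in wild-type worms, with no overlap and no call (limma adjusted p = 0.25). Among 14 genes of muscle excitation and calcium handling 0 were called, against 0.834% of all genes. Of these 14 the acetylcholine receptor subunit *acr-16* had the largest log2 fold change, 1.08, with 36.7, 33.7, 45.5 and 33.1 in polyQ35-YFP worms and 24.3, 14.2 and 13.99 in wild-type worms (limma adjusted p = 0.17).

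Pharyngeal muscle uses contractile genes of its own. All 6 of those tested lay above 0, against 6045 of all 11751 genes, with a median log2 fold change of 0.52. Of the 6, 1 was called higher, against 0.417% of all genes. This was the troponin I gene *tni-4*, with 3120, 2596, 1965 and 2525 in polyQ35-YFP worms, against 1639, 1247 and 1463 in wild-type worms. Its groups did not overlap (log2 fold change 0.81, limma adjusted p = 0.047), but the call was lost in 9 alternatives, edgeR among them, and the gene overlaps another on the opposite strand. The pharyngeal myosin genes *myo-5*, *myo-1* and *myo-2* had log2 fold changes of 0.82, 0.56 and 0.10 with overlapping groups.

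**Figure D2:**
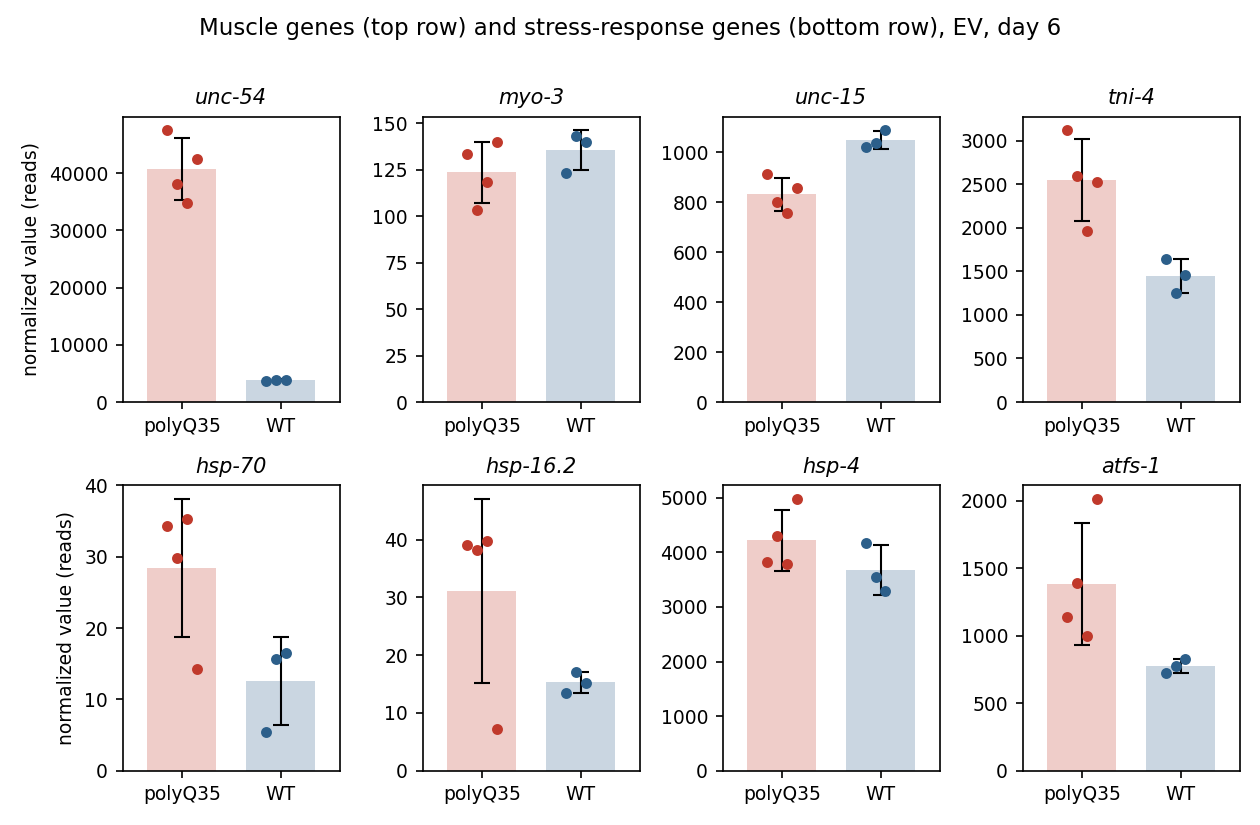
Normalized value (y axis, from 0, one scale per panel) of muscle and stress response genes in each EV sample, polyQ35-YFP left and wild type right. Points are samples, bars are means and error bars are SD (n = 4 and n = 3); *unc-54* is the gene whose groups lie far apart, and *hsp-16.2* is at 7.16 in 1 polyQ35-YFP sample and at 38.2 to 39.8 in the other 3.

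No difference was detected in *anc-1*, the gene that encodes the nuclear anchorage protein that the study knocked down in its other samples. *anc-1* had 432, 340, 362 and 315 in polyQ35-YFP worms, against 343, 359 and 414 in wild-type worms. The interval of the log2 difference was -0.40 to 0.31 (limma adjusted p = 0.97). Of 10 genes of the LINC complex and the lamina 0 were called, against 0.834% of all genes, with log2 fold changes from -0.11 to 0.08.

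Chaperones of the cytosol were not called in polyQ35-YFP worms on day 6. Of 54 tested, 0 passed the test, against 0.834% of all genes, and the median log2 fold change was 0.04. With the limma test at an unadjusted p below 0.05, 2 were higher and 1 lower, against 521 and 517 of all genes. The abundant *hsp-1* (HSC70), *daf-21* (HSP90) and *sip-1* (a small heat shock protein) had log2 fold changes of 0.09, 0.05 and -0.26. The inducible *hsp-70* had 34.3, 29.8, 35.3 and 14.3 in polyQ35-YFP worms, against 5.41, 15.7 and 16.53 in wild-type worms. Its replicate 4 fell among the wild-type values, and the log2 fold change of 1.18 was not called (limma adjusted p = 0.40).

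*hsp-16.2*, a small heat shock gene that is a usual reporter of the heat shock response, had 39.2, 38.2, 39.8 and 7.16 in polyQ35-YFP worms, against 13.5, 17.1 and 15.3 in wild-type worms. Replicates 1 to 3 were above, and replicate 4 below, every wild-type sample. With all samples the log2 fold change was 0.73 (limma adjusted p = 0.79). Without replicate 4 it was 1.31, and *hsp-16.2* and the HSP70 gene *F44E5.4* were the 2 chaperone genes called, both higher (limma adjusted p = 0.025 and 0.031). *F44E5.4* had 106.5, 91.4, 125 and 48.3 in polyQ35-YFP worms, against 62.2, 49.15 and 55.9 in wild-type worms, again with replicate 4 lowest among polyQ35-YFP samples. *hsp-16.41* had 266, 137, 270 and 85.0 in polyQ35-YFP worms and 138, 125 and 126 in wild-type worms, with overlap. The *hsp-16* genes are close copies of each other, so reads may be shared between them. Under these names *hsp-16.1*, *hsp-16.11*, *hsp-16.48* and *hsp-16.49* were not among the genes tested.

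No gene of either organelle UPR was called, where 0.834% of all genes were, a share that can leave short lists without a call. Of 24 genes of the UPR of the endoplasmic reticulum 0 were called, with a median log2 fold change of 0.06. *hsp-4*, the BiP chaperone that reports this response, had 3825, 4306, 3779 and 4978 in polyQ35-YFP worms, against 4178, 3557 and 3285 in wild-type worms. The interval of its log2 difference was -0.12 to 0.52, and *xbp-1*, the transcription factor of the pathway, was at 0.07. *enpl-1*, the GRP94 chaperone, had 13489, 13647, 14027 and 13651 in polyQ35-YFP worms, against 12275, 10581 and 10521 in wild-type worms. Here the groups lay apart, but the log2 fold change of 0.30 was not called (limma adjusted p = 0.52).

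For the mitochondrial UPR 0 of 12 genes were called, and the median log2 fold change was 0.23, or 0.04 without polyQ35-YFP replicate 4. *atfs-1*, the transcription factor that starts this response, had 1137, 1391, 996 and 2014 in polyQ35-YFP worms, against 726, 775 and 828 in wild-type worms. All polyQ35-YFP samples were higher, by 0.78 on the log2 scale (limma adjusted p = 0.14), and DESeq2 and the fit without replicate 4 called it. Its chaperone targets *hsp-6* and *hsp-60* overlapped between the strains, at 0.20 and 0.30 on the log2 scale. *hsp-60* was read at 8069 in polyQ35-YFP replicate 4 and at 2974 to 5053 in the other polyQ35-YFP samples, against 3517 to 3917 in wild-type worms.

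Among genes of protein degradation 2 F-box genes were called. Of 36 proteasome genes and 27 autophagy genes 0 were called, against 0.834% of all genes, with median log2 fold changes of 0.01 and -0.02. SCF ligases join a cullin, a Skp1-related (*skr*) adaptor and an F-box protein that picks the substrate. Of 212 tested SCF genes 2 were called higher, against 0.417% of all genes, and 0 lower. Both were among 187 F-box genes, while 0 of 19 *skr* genes and 0 of 6 cullins were called. *fbxb-56* had 1647, 1879, 2240 and 2203 in polyQ35-YFP worms, against 734, 836 and 928 in wild-type worms. Each polyQ35-YFP sample was well above the wild-type range (log2 fold change 1.25 ± 0.15 SE, limma adjusted p = 0.0011). *fbxb-97* had 12.24, 22.04, 29.6 and 45.7 in polyQ35-YFP worms, against 4.06, 2.85 and 3.81 in wild-type worms. Its log2 fold change was 2.499 (limma adjusted p = 0.016), and the call was lost in 5 alternatives.

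**Figure D3:**
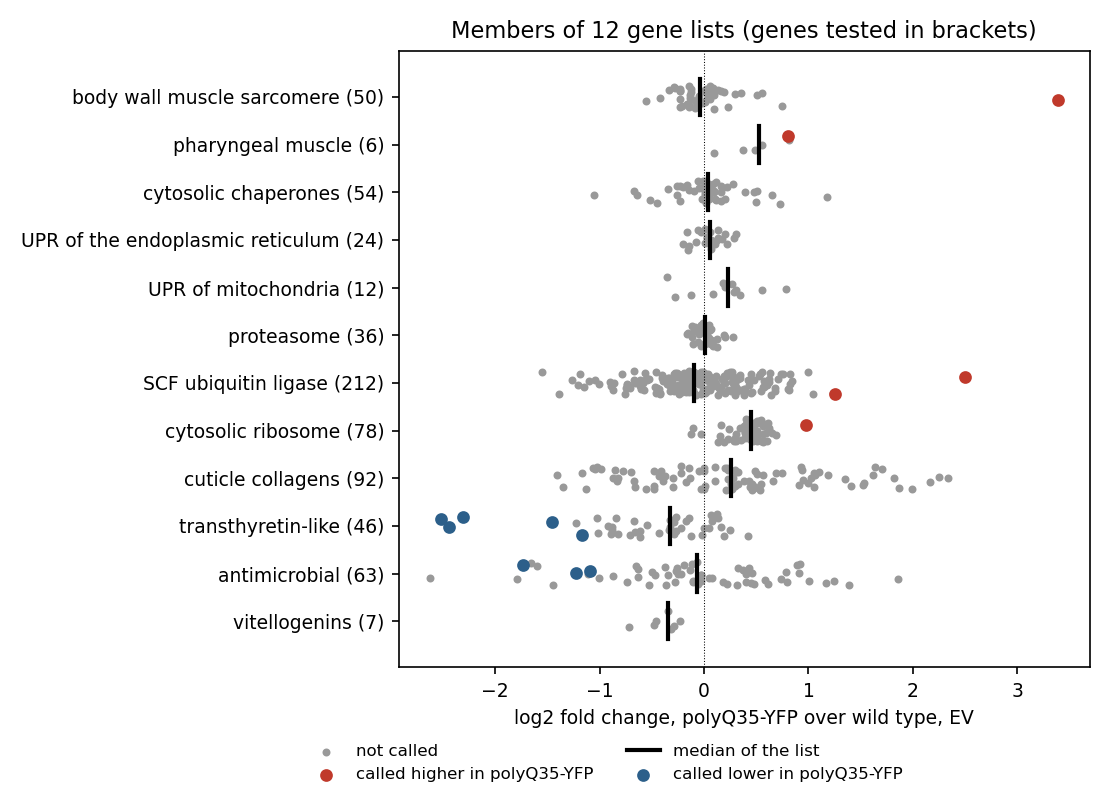
Log2 fold change of polyQ35-YFP over wild type under EV (x axis) for every tested member of 12 gene lists (rows), with black bars at the median of each list. Red and blue points are members called higher and lower; 5 of 46 transthyretin-like genes were lower, and 0 of 54 cytosolic chaperones were called.

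The largest increases were in genes known only by their clone names, together with *unc-54* and *shk-1*. *C38D9.2* (WBGene00008010, chromosome V, 17567513 to 17571603) had 452, 550, 469 and 702 in polyQ35-YFP worms, against 20.3, 22.1 and 12.7 in wild-type worms. Its log2 fold change of 4.83 ± 0.24 (SE) was the largest of the called genes (limma adjusted p = 1.7e-07). *F49F1.15* had 90.6, 60.3, 37.5 and 38.5 in polyQ35-YFP worms, against 0, 0 and 7.63 in wild-type worms, so its log2 fold change of 4.72 rests on a few wild-type reads. *F36H12.4* had 228, 187, 247 and 132 in polyQ35-YFP worms and 5.41, 13.5 and 5.09 in wild-type worms.

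*F41G4.7*, *ZC15.3*, *F59B10.3*, *F49C5.4* and *T22A3.12* had log2 fold changes of 4.48, 4.18, 3.95, 3.43 and 3.14, also with groups apart. *T22A3.12* overlaps another gene on its own strand. *F15D4.5* had 2398, 2578, 2302 and 3113 in polyQ35-YFP worms, against 318, 353 and 342 in wild-type worms. That is a log2 fold change of 2.93 at a high read number (limma adjusted p = 1.7e-07). Its neighbour *F15D4.6*, 1318 bases away on chromosome II, had 22.03, 28.5, 31.8 and 46.6 in polyQ35-YFP worms and 2.70, 4.27 and 5.09 in wild-type worms (log2 fold change 2.71, limma adjusted p = 0.0028).

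*shk-1* (chromosome II, 9758234 to 9768265) encodes a Shaker-type voltage-gated potassium channel, which shapes the excitability of muscle and neurons. It was read at 201, 192, 230 and 291 in polyQ35-YFP worms, against 33.8, 22.1 and 17.8 in wild-type worms. No sample came close to the other group (log2 fold change 3.20 ± 0.25 SE, limma adjusted p = 1.7e-05). The aquaporin gene *aqp-10*, whose 3′ end faces that of *shk-1* across 185 bases on the opposite strand, had 753, 669, 855 and 525 in polyQ35-YFP worms, against 295, 279 and 314 in wild-type worms (log2 fold change 1.219, limma adjusted p = 0.0038). In all, 12 pairs of called genes lay within 25000 bases of each other, and 9 of them (75.0%) moved in the same direction. The share was 51.7% over the 45347 pairs of tested genes within that distance, which share genes. Most of those pairs hold no called gene, so the shares are not of like genes. Whether called neighbours move together was not tested. Of the pairs that moved in opposite directions the closest was *C50F7.6* (lower) and *C50F7.5* (higher), 3518 bases apart, whose calls were lost in 9 and 6 alternatives. Called genes made up between 0.606% (chromosome X) and 1.08% (chromosome V) of the tested genes of a nuclear chromosome.

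Other calls, chosen like *F15D4.5*, *F15D4.6* and *aqp-10* after their values were seen, included genes of the epidermis, of membranes and of signalling. *nhr-25*, a nuclear hormone receptor that acts in molting and the epidermis, had 551, 566, 834 and 333 in polyQ35-YFP worms, against 168, 228 and 198 in wild-type worms (log2 fold change 1.46, limma adjusted p = 0.015). *wrt-10*, a hedgehog-related secreted protein, had 1434, 1102, 1621 and 803 in polyQ35-YFP worms, against 568, 486 and 416 in wild-type worms (log2 fold change 1.30, limma adjusted p = 0.012). *dpy-31*, a protease that processes cuticle collagens, had 639, 445, 631 and 348 in polyQ35-YFP worms, against 196, 228 and 235.2 in wild-type worms (log2 fold change 1.19, limma adjusted p = 0.019). In all 3 genes polyQ35-YFP replicate 4 was the lowest of its group and still above wild type. The calls of *nhr-25*, *wrt-10* and *dpy-31* were lost in 5, 4 and 7 alternatives.

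Other genes called higher were *snt-3* (a synaptotagmin), *scrm-4* (a phospholipid scramblase), *pdfr-1* (a receptor of PDF neuropeptides), *frpr-7* (a receptor of the FMRFamide peptide family) and *bas-1* (the decarboxylase that makes serotonin and dopamine). Their log2 fold changes were 1.59, 1.99, 1.41, 2.16 and 0.93, and the calls of the last 3 were lost in 8, 7 and 7 alternatives, edgeR and the replicate block among those of *pdfr-1*. Of the 9 neuronal markers 1 had a log2 fold change above 0, as had 19 of 67 neuropeptide genes, against 6045 of all 11751 genes. *ife-5*, an isoform of the cap-binding translation factor, had 226, 206, 210 and 305 in polyQ35-YFP worms, against 81.1, 94.03 and 95.4 in wild-type worms. Its log2 fold change was 1.37, and the gene was called in every alternative that tested it. The C-type lectin *clec-190* had 1658, 1187, 1155 and 713 in polyQ35-YFP worms, against 383, 272 and 371 in wild-type worms (log2 fold change 1.74, limma adjusted p = 0.0028). It was the 1 called higher of 58 C-type lectin genes, against 0.417% of all genes, and 0 were called lower. Of the 58, 23 had a log2 fold change above 0, and the median was -0.22.

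*dct-8*, known as a target of the DAF-16 (FOXO) transcription factor, had 1431, 748, 729 and 410 in polyQ35-YFP worms, against 181, 165 and 205 in wild-type worms. The polyQ35-YFP values spread widely but stayed above the wild-type range (log2 fold change 2.04, limma adjusted p = 0.0055). *acbp-3*, an acyl-CoA binding protein, had 228, 172, 246 and 116 in polyQ35-YFP worms, against 48.7, 64.1 and 68.7 in wild-type worms (log2 fold change 1.596, limma adjusted p = 0.0095). *cdr-2*, of a cadmium-responsive gene family, had 188, 121.8, 110 and 93.1 in polyQ35-YFP worms, against 36.5, 50.6 and 52.1 in wild-type worms (log2 fold change 1.42, limma adjusted p = 0.022). *rap-2*, a small GTPase of the Ras family, had a lesser but even increase, with 3072, 3325, 3902 and 4008 in polyQ35-YFP worms and 2190, 1993 and 2142 in wild-type worms (log2 fold change 0.75, limma adjusted p = 0.022). None of these groups overlapped. *cdr-2* and *rap-2* lost their calls in 6 alternatives each, *acbp-3* in 3 and *dct-8* in 1.

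**Figure D4:**
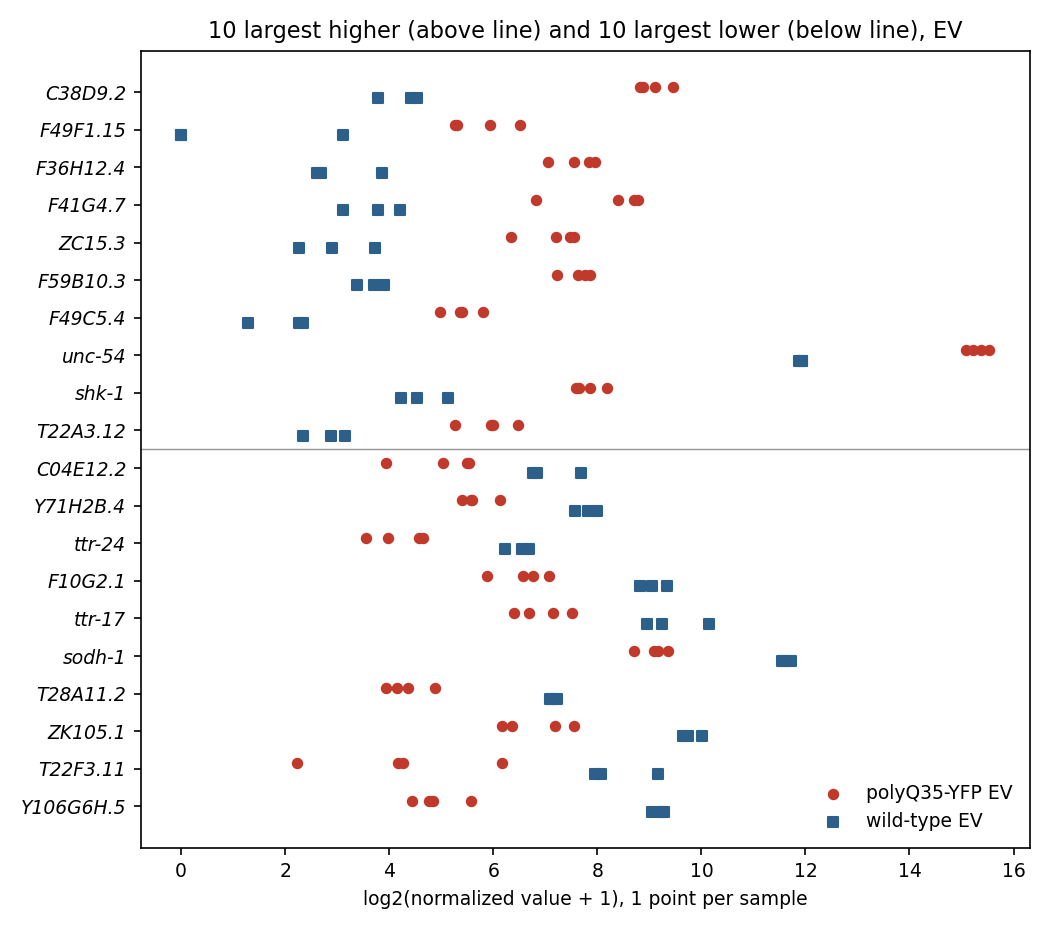
Level in each EV sample, as log2(normalized value + 1) on the x axis, of the 10 genes of largest increase (above the line) and the 10 of largest decrease (below it). Red circles are polyQ35-YFP samples and blue squares wild-type samples; the groups lie apart in every gene shown, as for *C38D9.2*, with 452 to 702 in polyQ35-YFP worms and 12.7 to 22.1 in wild-type worms.

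The largest decrease was in *Y106G6H.5* (WBGene00013718, chromosome I, 10438075 to 10443563). It had 46.5, 20.7, 26.2 and 27.8 in polyQ35-YFP worms, against 607, 618 and 531 in wild-type worms. The lowest wild-type sample was far above the highest polyQ35-YFP sample, with a log2 fold change of -4.29 ± 0.25 (SE; limma adjusted p = 1e-06). *T22F3.11* had 3.67, 18.1, 70.5 and 17.01 in polyQ35-YFP worms, against 246, 269 and 570 in wild-type worms. Its spread was wide, and the call (log2 fold change -4.19, limma adjusted p = 0.007) was lost without wild-type replicate 3 and without a variance trend. *ZK105.1*, *T28A11.2*, *F10G2.1*, *Y71H2B.4* and *C04E12.2* had log2 fold changes of -2.99, -2.82, -2.50, -2.12 and -2.097. *C04E12.2* overlaps another gene on its own strand, and its call was lost in 6 alternatives. Those of *ZK105.1*, *T28A11.2*, *F10G2.1* and *Y71H2B.4* were lost in 0.

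*sodh-1* (chromosome V, 11888236 to 11889650), which encodes an alcohol dehydrogenase, had the clearest decrease among genes of known function. Its values were 417, 545, 654 and 575 in polyQ35-YFP worms, against 3380, 2995 and 3060 in wild-type worms. All polyQ35-YFP samples were thus far below every wild-type sample. The log2 fold change was -2.54 ± 0.16 (SE; limma adjusted p = 1.9e-06), and it was called in every alternative. Its value is uncertain in so far as *sodh-2* lies over it on the other strand and the sources do not say if reads were counted by strand.

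Transthyretin-like genes form a large family of small secreted proteins in nematodes. Of 46 tested members 5 were called lower, against 0.417% of all genes, and 0 higher, 36 had a log2 fold change below 0, and the median was -0.33, or -0.14 without polyQ35-YFP replicate 4. *ttr-17* had 181, 102, 141 and 83.3 in polyQ35-YFP worms, against 604, 498 and 1125 in wild-type worms (log2 fold change -2.51, limma adjusted p = 7.7e-04). Its neighbour *ttr-16*, 1864 bases away on chromosome IV, had 173, 128, 163 and 100.3 in polyQ35-YFP worms, against 272, 317 and 346 in wild-type worms (log2 fold change -1.16, limma adjusted p = 0.019). Both polyQ35-YFP ranges lay wholly below the wild-type ones. *ttr-16* overlaps *lin-3* on the opposite strand.

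On chromosome V, *ttr-24* and *ttr-25* lie 94 bases apart and fell together. *ttr-24* had 14.7, 23.98, 22.7 and 10.7 in polyQ35-YFP worms, against 93.3, 74.1 and 102 in wild-type worms (log2 fold change -2.31). *ttr-25* had 6.12, 5.83, 6.82 and 4.48 in polyQ35-YFP worms, against 31.1, 38.5 and 38.1 in wild-type worms (log2 fold change -2.44). In both the groups were widely apart (limma adjusted p = 0.0028 for each). *ttr-5* had 50.2, 23.98, 32.98 and 25.96 in polyQ35-YFP worms, against 89.2, 94.03 and 85.2 in wild-type worms (log2 fold change -1.46, limma adjusted p = 0.026). *ttr-2* had 2221, 1614, 2051 and 1174 in polyQ35-YFP worms, against 3026, 2904 and 3298 in wild-type worms, and was not called (limma adjusted p = 0.085), though DESeq2 and the fit without polyQ35-YFP replicate 4 called it (adjusted p = 0.017 and 0.015). *ttr-16* and *ttr-5* lost their calls in 6 alternatives each, and *ttr-17*, *ttr-24* and *ttr-25* in 0.

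Some genes whose products bind lipids were called lower, whereas *acbp-3* was higher, and all were chosen after their values were seen. *far-2*, a secreted protein that binds fatty acids and retinol, had 7767, 7344, 7949 and 7468 in polyQ35-YFP worms, against 13413, 11865 and 15042 in wild-type worms. The polyQ35-YFP samples were close to each other and all below wild type (log2 fold change -0.81, limma adjusted p = 0.010). *far-6*, of the same family, had 177, 162, 175 and 133 in polyQ35-YFP worms, against 306, 288 and 384 in wild-type worms (log2 fold change -1.002, limma adjusted p = 0.019). The fatty acid binding protein gene *lbp-2* had 1923, 1250, 1693 and 809 in polyQ35-YFP worms, against 3805, 3391 and 4147 in wild-type worms (log2 fold change -1.48, limma adjusted p = 0.0091). None of these ranges overlapped, and the calls of *far-6*, *far-2* and *lbp-2* were lost in 7, 4 and 4 alternatives.

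*acs-2*, an acyl-CoA synthetase of mitochondrial fatty acid oxidation that is induced by fasting, had 52.6, 62.2, 105 and 81.5 in polyQ35-YFP worms, against 372, 294 and 168 in wild-type worms (log2 fold change -1.85, limma adjusted p = 0.0075). It was the only called gene of 51 lipases and beta-oxidation genes, against 0.834% of all genes. Of the 51, 31 were above 0 with a median of 0.10, and 0 of 18 fatty acid synthesis genes were called. *fmo-2*, a flavin-containing monooxygenase, had 8.57, 7.13, 15.9 and 13.4 in polyQ35-YFP worms, against 47.3, 32.1 and 40.7 in wild-type worms (log2 fold change -1.79, limma adjusted p = 0.031). *heh-1*, related to the mammalian sterol carrier NPC2, was lower by 1.53 on the log2 scale, with 419 to 577 in polyQ35-YFP worms and 1303 to 1677 in wild-type worms. The call of *acs-2* was lost in 3 alternatives, those without wild-type replicate 1 or 2 among them, and that of *fmo-2* in 7 alternatives.

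Of 63 antimicrobial genes 3 were called lower and 0 higher, against 0.417% of all genes in each direction, with a median of -0.07. They were the saposin-like *spp-15*, the caenacin *cnc-6* and the lysozyme *lys-4*, at -1.74, -1.23 and -1.09 on the log2 scale. Without polyQ35-YFP replicate 4 the median was 0.09 and 7 were called higher (*spp-23*, *abf-2*, *fipr-22*, *fipr-26*, *cnc-7*, *nlp-28* and *nlp-29*) and 6 lower (these 3 with *spp-22*, *fip-5* and *fip-1*). DESeq2 called 4 higher and 7 lower. Of all genes, the fit without replicate 4 called 159 higher and 87 lower, and DESeq2 called 102 and 96. *spp-15* had 74.7, 55.1, 84.2 and 35.8 in polyQ35-YFP worms, against 183, 178.8 and 245 in wild-type worms, and it overlaps a gene on the opposite strand. The call of *lys-4* (limma adjusted p = 0.045) was lost in 10 alternatives, TMM scaling and edgeR among them, and those of *cnc-6* and *spp-15* in 5 and 4. The metallothionein *mtl-2* was the only called gene of 15 for oxidative and metal stress, against 0.834% of all genes. It had 1465, 1091, 1302 and 1152 in polyQ35-YFP worms, against 2138, 2031 and 2071 in wild-type worms (log2 fold change -0.74, limma adjusted p = 0.028), a call lost in 7 alternatives. By the annotation in the tables, 7 of the 49 lower genes carried the term extracellular region, against 1.97% of all genes tested.

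Other lower genes, again chosen after their values were seen, had varied roles. *srp-1*, a serpin protease inhibitor, had 37.9, 31.1, 30.7 and 35.8 in polyQ35-YFP worms, against 111, 88.3 and 87.7 in wild-type worms (log2 fold change -1.47, limma adjusted p = 0.0066). *lec-5*, a galectin, had 163, 156, 150.1 and 142 in polyQ35-YFP worms, against 256, 277 and 347 in wild-type worms (log2 fold change -0.93, limma adjusted p = 0.022). *faah-3*, a fatty acid amide hydrolase, was read at 1.224 to 3.58 in polyQ35-YFP worms and at 17.1 to 28.4 in wild-type worms (log2 fold change -2.76, limma adjusted p = 0.0072). The aquaporin *aqp-1* had 110, 108, 92.1 and 141 in polyQ35-YFP worms, against 330, 317 and 196 in wild-type worms, a change opposite to that of *aqp-10* (log2 fold change -1.29, limma adjusted p = 0.015). *aqp-1* overlaps a gene on the opposite strand. *lec-5*, *aqp-1*, *faah-3* and *srp-1* lost their calls in 7, 4, 2 and 1 alternatives.

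The same strains were also sampled under *anc-1* RNAi (polyQ35-YFP n = 4, wild type n = 3), which share no sample with EV but come from the same repeats. There limma called 93 genes higher (0.791%) and 164 lower (1.40%), or 257 in both directions (2.19%). Of the genes called under EV, 39 of the 49 higher ones were called higher again (79.6% of the EV list and 41.9% of the RNAi list). Likewise 38 of the 49 lower ones were called lower again (77.6% of the EV list and 23.2% of the RNAi list), and 0 were called in the opposite direction. The sign was kept in 46 of 49 and 47 of 49 genes, whereas 63.4% of all tested genes had the same sign. Groups lay apart under RNAi as well in 38 of the 49 higher genes, against 6.25% of all genes, and in 42 of the 49 lower ones, against 7.45%.

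*unc-54* had 54322, 63522, 47920 and 68411 in polyQ35-YFP worms under *anc-1* RNAi, against 4624, 3809 and 4117 in wild-type worms, normalized among the 7 RNAi samples. That was a log2 fold change of 3.80. *C38D9.2* had 420 to 600.5 in polyQ35-YFP worms under RNAi and 14.1 to 27.1 in wild-type worms, and *shk-1* had 176 to 252 in polyQ35-YFP worms and 15.9 to 31.6 in wild-type worms. *Y106G6H.5* had 23.1 to 41.4 in polyQ35-YFP worms and 452 to 512 in wild-type worms. None of these ranges overlapped.

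**Figure D5:**
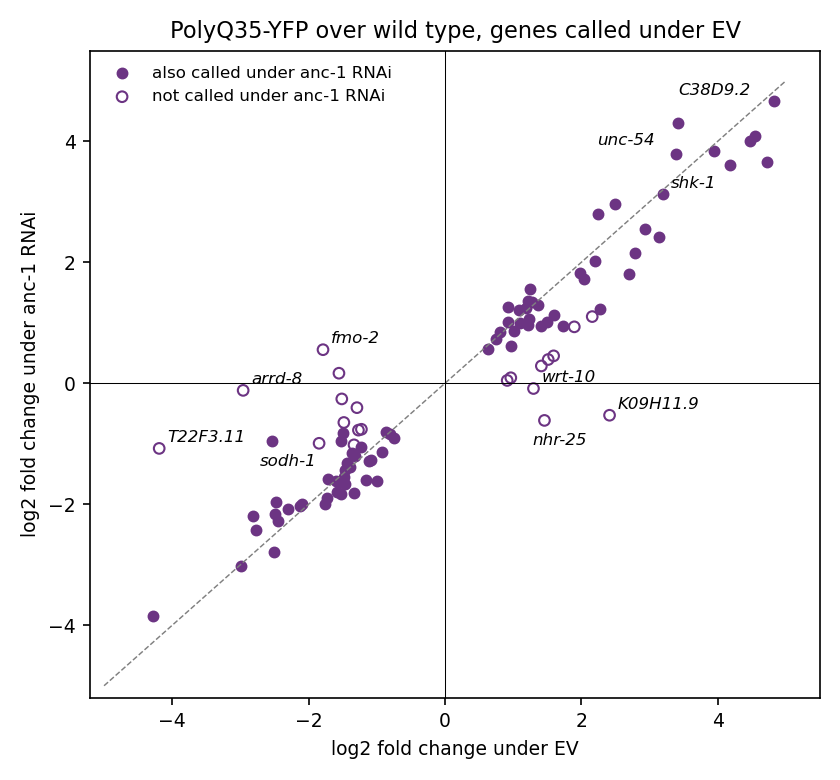
Log2 fold change of polyQ35-YFP over wild type under EV (x axis) and under *anc-1* RNAi (y axis) for the 98 genes called under EV. Filled points were called in both, open points under EV only, and the dashed line marks equal change; genes that lie off it include *T22F3.11* (-4.19 and -1.08), *K09H11.9* (2.42 and -0.53), *arrd-8* (-2.96 and -0.12), *fmo-2* (-1.79 and 0.56), *nhr-25* (1.46 and -0.61) and *sodh-1* (-2.54 and -0.95).

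Whether a strain difference itself differed between the treatments was tested as an interaction of strain and treatment over all 14 samples. limma called 0 genes (0.00%), with 432 at an unadjusted p below 0.05, edgeR called 1 and DESeq2 called 2. The gene called by edgeR was *sodh-1*, which DESeq2 called too (adjusted p = 0.028 and 5.5e-06, and 0.052 with limma). Under *anc-1* RNAi *sodh-1* had 125, 193, 121 and 184 in polyQ35-YFP worms, against 294, 286 and 308 in wild-type worms (log2 fold change -0.95). *nhr-25*, the other gene called by DESeq2 (adjusted p = 2.0e-04, and 0.093 with limma), had 221, 366, 337 and 197 in polyQ35-YFP worms, against 438, 368 and 442 in wild-type worms. Its log2 fold change under RNAi was -0.61, with all polyQ35-YFP values below the wild-type range, the nearest at 366 against 368, and no call there (limma adjusted p = 0.12). Without polyQ35-YFP EV replicate 4 limma called 8 genes, *sodh-1*, *nhr-25*, *wrt-10* and the collagen gene *dpy-14* among them.

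Ribosomal protein genes lay above 0 on the whole, most of all in polyQ35-YFP replicate 4. Of 78 cytosolic ribosomal protein genes 75 had a log2 fold change above 0, against 6045 of all 11751 genes. Of the 78, 1, *rpl-6*, was called, against 0.417% of all genes called higher. By limma at an unadjusted p below 0.05, 28 were higher and 0 lower, against 521 and 517 of all genes. Groups lay apart, higher, in 11 of the 78, against 4.65% of all genes. The summed normalized values of the 78 genes were 303189, 353005, 252224 and 536564 in polyQ35-YFP worms, against 267895, 252798 and 248018 in wild-type worms. Replicate 4 was the highest and replicate 3 within the wild-type range, and the median log2 fold change was 0.45 with replicate 4 and 0.23 without it. *rpl-6* had 5581, 6485, 4721 and 8847 in polyQ35-YFP worms, against 3430, 3151 and 2965 in wild-type worms (log2 fold change 0.97, limma adjusted p = 0.031), and it lies 768 bases from *dpy-31*. That call was lost in 5 alternatives.

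Collagens make up the cuticle. Of 92 tested cuticle collagen genes 0 were called. By limma at an unadjusted p below 0.05, 22 were higher and 8 lower, against 521 and 517 of all 11751 genes. The median was 0.26, or 0.35 without polyQ35-YFP replicate 4. For 15 genes of body shape and blisters it was 1.02, with 13 above 0. *dpy-14* had 931, 745, 1226 and 421 in polyQ35-YFP worms, against 396, 375 and 314 in wild-type worms. *dpy-17* had 2190, 1974, 3060 and 1045 in polyQ35-YFP worms, against 883, 1073 and 898 in wild-type worms. Replicate 4 was the lowest polyQ35-YFP sample in both, and without it both were called, at 1.40 and 1.32 on the log2 scale. That fit also called *col-95*, *col-135* and *sqt-3* higher and *col-129* lower, and DESeq2 called 5 collagen genes higher (*dpy-14*, *dpy-17* and *sqt-3* among them) and 1 lower. The 6 epidermal markers all lay above 0 (median 0.43, or 0.71 without replicate 4) and 0 were called by limma, with summed values of 2217, 2333, 2899 and 1809 in polyQ35-YFP worms, against 1670, 1673 and 1582 in wild-type worms; *rol-6* was at 0 in 2 wild-type samples. The part of epidermal RNA in the higher *nhr-25*, *wrt-10* and *dpy-31* was not tested.

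Yolk genes were on the lower side. All 7 vitellogenin and yolk receptor genes had a log2 fold change below 0, with a median of -0.34 (-0.49 without polyQ35-YFP replicate 4), and 0 were called. By limma at an unadjusted p below 0.05, 3 were lower, against 517 of all 11751 genes. *vit-3* had 9981, 7207, 6848 and 8716 in polyQ35-YFP worms, against 12328, 12363 and 15390 in wild-type worms. Those ranges did not overlap, and the limma adjusted p was 0.076, or 0.014 without replicate 4.

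Markers of other cell types were not called. Of 9 neuronal, 9 germline, 8 intestinal, 4 pharyngeal, 5 somatic gonad and 2 coelomocyte markers 0 passed the test, and of 4 body wall muscle markers *unc-54* did. Of all genes 0.834% passed, a share that can leave lists this short without a call. The germline markers summed to 9228, 11339, 9095 and 16508 in polyQ35-YFP worms, against 11677, 10797 and 10388 in wild-type worms, with replicate 4 the highest. The coelomocyte marker *unc-122* was at 0 in 2 polyQ35-YFP samples and at 3.24 and 0.895 in the others, against 5.41, 6.41 and 3.81 in wild-type worms, and was not called (limma adjusted p = 0.36).

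Most other gene groups held no call by limma with all samples, where 0.834% of all genes were called, a share that can leave such lists without a call. Among 129 detoxification genes (cytochromes P450, glutathione transferases and UDP-glucuronosyltransferases) 0 were called, with a median log2 fold change of 0.18. At an unadjusted p below 0.05, limma put 4 of them higher and 4 lower. For 67 neuropeptide genes the count was 0 and the median -0.24, or -0.05 without polyQ35-YFP replicate 4. By limma at an unadjusted p below 0.05, 2 of them were higher and 8 lower. DESeq2 called *nlp-25* lower, and the fit without replicate 4 called *nlp-25* lower and *nlp-28* and *nlp-29* higher. With limma, 0 of 33 insulin signaling genes, 0 of 36 respiratory chain subunits, 0 of 63 mitochondrial ribosomal protein genes, 0 of 22 Argonautes and RNAi factors and 0 of 12 T-box factors were called. Their medians were -0.02, 0.05, 0.15, 0.06 and -0.20. By limma at an unadjusted p below 0.05 these 5 lists held 0, 0, 2, 1 and 0 higher and 3, 3, 0, 0 and 1 lower genes. Of all 11751 genes, 521 were higher and 517 lower at that threshold.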

How the data were processed

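The authors trimmed the reads with cutadapt 1.12, aligned them with TopHat2 2.1.1 to WBcel235, counted them per gene with HTSeq 0.6.1 without molecular identifiers, and discarded genes with a mean count under 2. The signal deposited per sample is a read count that the authors divided by a DESeq2 1.22.2 size factor, in each strain's table separately. The log2 fold changes and standard errors, the score (a Wald statistic) and the p-values deposited are the authors' treatment comparison and were not used.

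Here each column was divided by its smallest positive value, which gave whole reads for 100% of values within 0.01. The 11751 genes in both tables were joined by identifier, since 422 genes were listed for polyQ35-YFP and 310 for wild type alone. Reads were scaled by size factors estimated jointly and tested with limma 3.58.1 (R 4.3.3) on log2(value + 1), empirical Bayes with a variance trend. edgeR 4.0.16, DESeq2 1.42.0 and other scalings, filters, weights and left-out samples were alternatives. The limma, edgeR and DESeq2 tests of the EV comparison were checked on simulated reads, drawn for each gene independently. That check does not cover a sample that stands apart in many genes, as polyQ35-YFP replicate 4 did. All intervals are 95% limma intervals, without adjustment.

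Genes were named if they were *anc-1* or *unc-54*, if they were among the 10 largest called changes in each direction (mean value at least 20, groups apart), or if they were called members of a list (at most 4) or the most read members of the muscle, chaperone and UPR lists; others were chosen after their values were seen. Members and lists were chosen with earlier results of these data known. Same-numbered samples of the strains correlated at -0.033, 0.073 and 0.058 in their deviations from the group means (9577 genes). With so few samples that does not settle whether numbers are pairs. They were not taken as pairs in the main test, and a replicate block was an alternative. Whether counting used strand is not given in the sources used here, and overlaps were looked up in Ensembl annotation, by which *act-4*, *daf-21*, *enpl-1*, *pat-2*, *acr-16*, *scrm-4* and *rap-2* also overlap a gene on the opposite strand. The annotation was release 115, in which 541 of the 11751 tested genes had the chromosome, start and end that the study gave. Overlaps of the gene models that were counted may thus differ.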

Additional observations from a re-analysis of the deposited data

Results flagged for a closer look

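In 4 genes, 3.36% of the named genes tested for it, 1 polyQ35-YFP sample stood apart from the other 3 by Dixon's test, which by chance picks about 1 in 20 groups. *hsp-16.2* was at 7.16 in polyQ35-YFP replicate 4 and at 38.2 to 39.8 in the others, against 13.5 to 17.1 in wild-type worms. The clone-named *F40F4.7*, called higher, was at 1231 in polyQ35-YFP replicate 3 and at 915 to 925 in the others, against 444 to 497 in wild-type worms. The collagen gene *rol-6* was at 12.5 in polyQ35-YFP replicate 3 and at 1.79 to 2.59 in the others, against 0, 0 and 1.27 in wild-type worms. *clx-1* was at 647 in polyQ35-YFP replicate 1 and at 40.9 to 121 in the others, against 7.63 to 31.1 in wild-type worms, and its log2 fold change of 3.32 was not called (limma adjusted p = 0.055).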

How the results depend on the processing

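Of the genes called under EV, 16 higher and 15 lower were called in all 18 alternatives that tested every gene, *unc-54*, *C38D9.2*, *shk-1*, *sodh-1* and *Y106G6H.5* among them. No named gene changed direction with its call. Against 49 higher and 49 lower, library-size scaling called 34 and 27, the tables as deposited 86 and 36 (70.5% higher, with the median of all genes at 0.18), DESeq2 102 and 96, limma without a variance trend 20 and 23, sample quality weights 588 and 674, and all 14 samples in 1 fit 86 and 88. A replicate block called 132 and 75 (63.8% higher), without a partner for polyQ35-YFP replicate 4. Different numbers correlated at -0.175 to 0.162 and same numbers at -0.033 to 0.073. With so few samples this cannot decide whether equal numbers share a repeat. Leaving out 1 sample gave 27 to 159 higher and 18 to 87 lower: 159 and 87 without polyQ35-YFP replicate 4, 27 and 24 without replicate 2, and 27 and 18, 30 and 29, and 27 and 20 without wild-type replicates 1, 2 and 3. Under *anc-1* RNAi, leaving out 1 sample gave 54 to 98 higher (54 without wild-type replicate 3) and 76 to 182 lower (97 and 76 without wild-type replicates 1 and 3). The interaction called 0 genes with limma, 1 with edgeR, 2 with DESeq2 and 8 without polyQ35-YFP EV replicate 4. The causes were not tested. Depth limits the rarest genes: 12 of the 49 higher and 4 of the 49 lower genes had a mean under 10 in their lower group.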

Other observations

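Genes listed in a single table were not tested, since the other strain's values are not analysed here, and a gene with a mean count under 2 in a strain is not listed there. Of the 422 genes listed for polyQ35-YFP alone 7 had an EV mean of at least 10 in the deposited values, and of the 310 listed for wild type alone 5 did. *srt-62*, of a family of chemoreceptor genes, had 47.5, 60.8, 53.1 and 43.6 in polyQ35-YFP EV samples. *srbc-6*, also a chemoreceptor gene, had 52.2, 58.9, 62.0 and 25.98. *C38D9.13*, 1972 bases from *C38D9.2*, had 20.9, 26.3, 19.9 and 34.4. In the wild-type table *D1086.2*, with an EV mean of 10.4, lies 36 bases from *D1086.1*, which was called lower in polyQ35-YFP worms (log2 fold change -1.76). These genes were chosen after their values were seen.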
